A study of Mus musculus with 4 samples.

Results

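The interferon regulatory factors are a family of transcription factors, and 8 of its genes were followed by name in the raw count table: Irf1, Irf2, Irf3, Irf4, Irf5, Irf7, Irf8 and Irf9. They were 8 of 38355 genes counted, each gene had a single row, and all 8 passed the filter on low counts. The tissue was the free wall of the left ventricle. RNA was taken from 4 mice that received no treatment, 1 library per mouse, to ask whether the transgene VSFP2.3 is toxic to the heart. The protein it encodes fluoresces in response to membrane voltage. WT 1 was a wild-type male of 35 weeks and TG 1 a VSFP2.3 transgenic male of 35 weeks. WT 2 was a wild-type female of 19 weeks and TG 2 a VSFP2.3 transgenic female of 19 weeks. All 4 had the same parents. The sources used here give neither the strain nor the promoter of the transgene or its founder lines, and transgene transcripts were not analysed here. The genotype labels were therefore taken as given and not checked, and exchanged labels within a pair would turn the sign of that pair's ratios. Sex and age differed together and cannot be told apart.

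All members of the family bind DNA through a conserved tryptophan-rich domain at the protein's start and recognise repeats of the letters GAAA. IRF3, IRF5 and IRF7 wait in the cytoplasm and, once kinases downstream of nucleic acid sensors have phosphorylated them, switch on interferon genes. IRF9 is the DNA-binding part of the complex ISGF3, which carries the type I interferon signal to the nucleus. IRF1 is raised by interferon gamma and drives antigen presentation genes, and IRF2 competes for many of the same sites. IRF8 and IRF4 act mainly in blood cells, where they specify macrophages, dendritic cells and lymphocytes, often as partners of PU.1.

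Libraries held 14158440 to 16762713 counted reads. Levels are given as CPM, the counts-per-million of library size scaled by trimmed means, and a count of 0 allows up to 3 counts, or 0.182 to 0.213 CPM. The heart muscle label was met by all 9 cardiomyocyte markers. They summed to 124000 CPM in WT 1, 128000 in TG 2, 168000 in WT 2 and 199000 in TG 1. Ttn was the largest part of each sum, at 61700, 63300, 96900 and 118000 CPM in the same order. Myh6 and Ryr2 shared that order, over 18400 to 32100 and 3500 to 6730 CPM. The other markers varied less: Actc1 10500 to 12200, Tnnt2 4020 to 5000, Tnni3 3440 to 3620, Myl2 7670 to 7950, Myl3 4080 to 4710 and Pln 7440 to 8680 CPM. WT 2 stood apart in make-up, with the non-coding gene Yam1 at 4.09% of its counts against 0.0141 to 0.0476% in the other libraries. It alone held appreciable transcripts of the atrial muscle genes Myl4 (1182 counts against 10 to 19), Myl7 (1111 against 0 to 5) and Sln (299 against 0 to 1). WT 2 is the wild-type library of every female ratio below, so those ratios cannot be given without it, and the part of atrial tissue in them was not tested. Leukocyte markers split the libraries across both genotypes: 5 of 5 (Ptprc, Laptm5, Coro1a, Cd52 and Cd53) were higher in WT 1 and TG 2, where they summed to 193 and 157 CPM, than in WT 2 and TG 1, where each sum was 37.0 CPM. The members are given library by library below. Some listed genes that share this split are given for WT 1 and TG 2 only, as ratios or within a count. In bulk tissue, fewer cells of a type and less RNA per cell cannot be told apart.

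Irf7 (ENSMUSG00000025498, chromosome 7, 141262706 to 141266481, mm10), which amplifies type I interferon production, varied most among the 8 genes. Its counts were 741 in WT 1, 50 in TG 1, 92 in WT 2 and 210 in TG 2. The corresponding CPM values, 45.1, 3.56, 5.89 and 13.9, spanned a 12.7-fold range. WT 1 lay far above the rest, and the genotypes overlapped, with TG 2 between the wild-type values and TG 1 below both. Within the males the level was 12.7-fold lower in TG than in WT, and within the females 2.37-fold higher.

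Irf9 (ENSMUSG00000002325, chromosome 14, 55603571 to 55610030), the DNA-binding subunit of ISGF3, stood at 43.4 CPM in WT 1, 12.6 in TG 1, 14.6 in WT 2 and 24.4 in TG 2. The order of the libraries was the one seen for Irf7, over a 3.45-fold range. In the males TG was 3.45-fold lower than WT, and in the females 1.68-fold higher.

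Irf3 (ENSMUSG00000003184, chromosome 7, 44997648 to 45002848), the constitutive first responder to viral nucleic acid, behaved differently. It was measured at 17.1 CPM in WT 1, 15.9 in TG 1, 26.5 in WT 2 and 18.0 in TG 2. Here WT 2 was the high library and the other 3 lay close together. TG was 1.08-fold lower than WT in the males and 1.47-fold lower in the females, and the genotypes overlapped because TG 2 exceeded WT 1.

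Irf1 (ENSMUSG00000018899, chromosome 11, 53770014 to 53778374), the activator of class I presentation genes, was the most abundant of the 8 in counts, with 1506 in WT 1, 343 in TG 1, 420 in WT 2 and 716 in TG 2. The corresponding levels were 91.6, 24.4, 26.9 and 47.5 CPM. WT 1 and TG 2 were the high libraries, and WT 2 exceeded TG 1 by only 1.10-fold. The TG level was 3.75-fold lower than WT in the males and 1.77-fold higher in the females.

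Irf2 (ENSMUSG00000031627, chromosome 8, 46739732 to 46847458), known as an antagonist of IRF1, was nearly flat. Its levels were 14.3 CPM in WT 1, 15.6 in TG 1, 16.4 in WT 2 and 16.1 in TG 2, a 1.15-fold range against a median range of 1.38-fold over all tested genes. Irf2 therefore did not share the split that Irf1 showed in the same libraries.

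Irf8 (ENSMUSG00000041515, chromosome 8, 120736358 to 120756694), a factor that specifies macrophages and type 1 dendritic cells, stood at 25.1 CPM in WT 1, 6.40 in TG 1, 8.32 in WT 2 and 20.5 in TG 2. The high libraries, WT 1 and TG 2, differed by only 1.22-fold. TG was 3.92-fold lower in the males and 2.47-fold higher in the females. Irf5 (ENSMUSG00000029771, chromosome 6, 29526625 to 29541871), which acts downstream of Toll-like receptors in myeloid cells, stood at 10.2, 2.28, 4.03 and 9.50 CPM in WT 1, TG 1, WT 2 and TG 2. Again WT 1 and TG 2 were high and close, at a ratio of 1.08. Irf4 (ENSMUSG00000021356, chromosome 13, 30749226 to 30766976), needed for plasma cells and activated T cells, was the least counted, with 91 in WT 1, 23 in TG 1, 46 in WT 2 and 114 in TG 2. Its levels were 5.53, 1.64, 2.94 and 7.57 CPM, and it was the member with its highest value in TG 2.

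**Figure D1:**
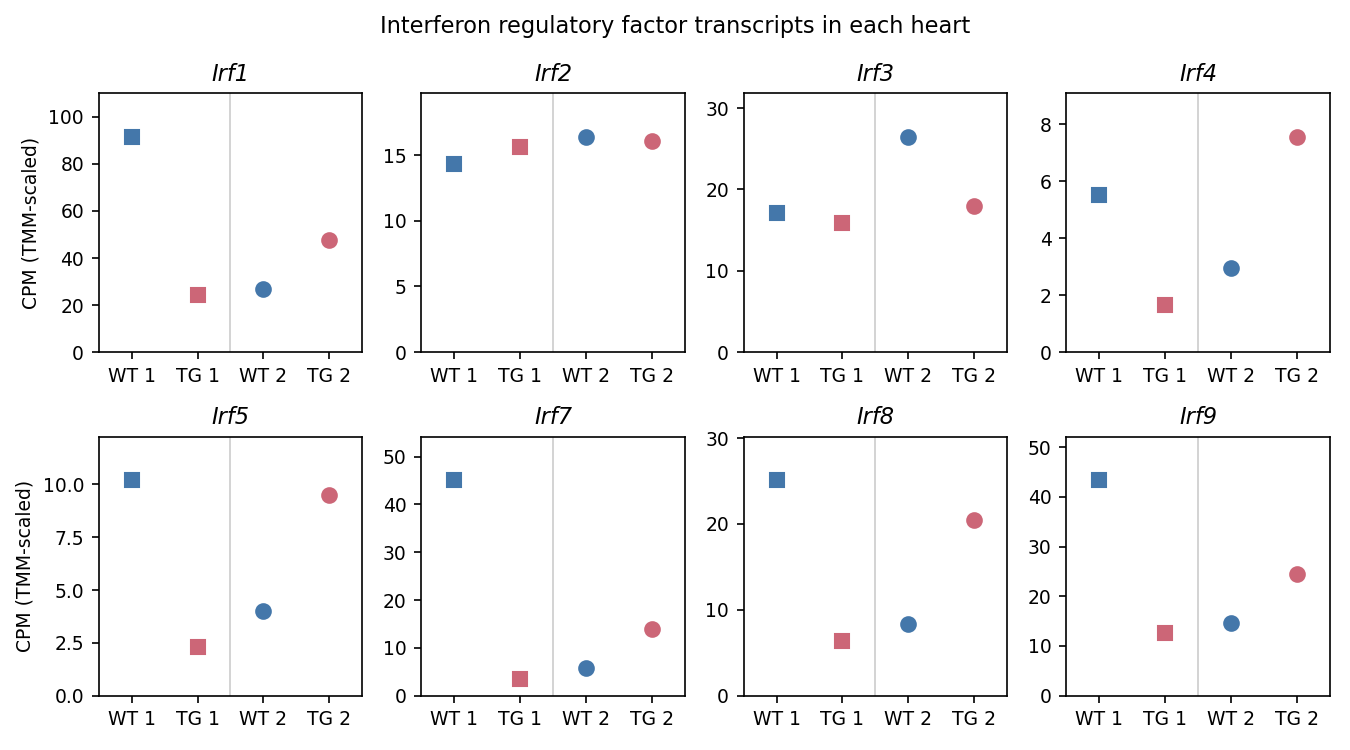
Level of each interferon regulatory factor gene in CPM (vertical axis from 0, scaled by trimmed means) in each of the 4 libraries, with wild type in blue, transgenic in red, 35-week males as squares and 19-week females as circles, 1 mouse per point. WT 1 is highest for Irf1, Irf5, Irf7, Irf8 and Irf9, TG 2 for Irf4, WT 2 for Irf3 and Irf2, while Irf2 spans only 14.3 to 16.4 CPM.

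Between the genotypes no member passed the test. The quasi-likelihood test of edgeR, adjusted after Benjamini and Hochberg over 14189 genes, called 0 of the 8 between TG and WT, against 0.0% of all tested genes called, and every member had an adjusted p of 1.00. None of the 8 had an unadjusted p below 0.05, where 99 of all tested genes did, and DESeq2 and limma-voom also called 0 of the 8. The fitted log2 fold changes of TG over WT (± SE, 2 mice per genotype) were -1.54 ± 1.09 for Irf7, -0.72 ± 0.65 for Irf1 and -0.65 ± 0.60 for Irf9. For Irf3, Irf8 and Irf5 they were -0.36 ± 0.25, -0.31 ± 0.73 and -0.27 ± 0.78. Irf4 and Irf2 were at 0.12 ± 0.76 and 0.052 ± 0.16. The SE exceeded the log2 fold change for Irf2, Irf4, Irf5 and Irf8. In no member were both transgenic values below, or both above, the wild-type values, while 10.7% of all tested genes had TG below WT in this way and 10.3% TG above WT.

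Mean levels show how wide the spread within a genotype was. The mean CPM of Irf7 was 25.5 ± 27.7 for wild type and 8.75 ± 7.35 for transgenic mice (SD, n = 2). For Irf1 the wild-type mean was 59.2 ± 45.8 CPM and the transgenic mean 36.0 ± 16.4. Irf2, by contrast, averaged 15.3 ± 1.48 CPM (wild type) and 15.9 ± 0.345 CPM (transgenic), so the wide spread was not shared by every member. The direction of most fold changes rested on WT 1: without it the log2 fold changes of Irf1, Irf5, Irf7, Irf8 and Irf9 were 0.42, 0.55, 0.58, 0.70 and 0.35, and that of Irf2 was -0.042. Without TG 1, Irf5 and Irf8 were at 0.42 and 0.30. Irf4 turned to -0.26 without WT 2 and to -1.37 without TG 2, and Irf3 kept its sign in each of the 4 omissions, from -0.64 to -0.012. Over all genes, 0 were called with all libraries and 8 without WT 1, none of them a member.

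Comparing the 35-week males with the 19-week females gave no member call either. The same edgeR test called 0 of the 8 members and 4 of 14189 genes, or 0.0282%. An unadjusted p below 0.05 was given to 513 genes, none of them a member, and limma-voom and DESeq2 called 4 and 34 genes and no member. With genotype as a further term edgeR called 0 genes, as it did without WT 1, TG 1 or WT 2, and 9 without TG 2, again with no member. The fitted log2 fold changes of males over females ranged from -0.54 ± 0.73 for Irf4 to 1.30 ± 1.15 for Irf7, with an adjusted p of 1.00 for each member. Irf3 was at -0.43 ± 0.22 and Irf2 at -0.12 ± 0.14. For these genes both males lay below both females, while 15.9% of all tested genes showed the same order. No member had both males above both females, as 15.5% of all tested genes did. For Irf3 the levels were 16.5 ± 0.858 CPM in males and 22.2 ± 6.0 in females (SD, n = 2), and without WT 2 the log2 fold change shrank to -0.13.

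Within each pair, the transgenic heart differed from the wild-type heart of the same sex and age in opposite directions. Fitting a separate genotype effect in each pair would use up all 4 libraries and leave none to estimate the spread, so these ratios are described and were not tested. Intervals are exact 95% binomial (Clopper-Pearson) intervals of the ratio of 2 libraries and cover counting error only, since the labels mention no molecular identifiers. In the male pair the log2 ratio of TG 1 over WT 1 was -3.62 for Irf7 (interval -4.11 to -3.25), -2.10 for Irf5 (-2.76 to -1.61) and -1.95 for Irf8 (-2.32 to -1.64). For Irf1, Irf9 and Irf4 it was -1.90 (-2.08 to -1.74), -1.78 (-2.03 to -1.55) and -1.68 (-2.49 to -1.09). Thus 6 of 8 members were at least 2-fold lower in TG, where 6.07% of all tested genes were. None was at least 2-fold higher, where 1.86% were.

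In the female pair the log2 ratio of TG 2 over WT 2 was 1.33 for Irf4 (0.86 to 1.89), 1.29 for Irf8 (1.00 to 1.61), 1.23 for Irf7 (0.88 to 1.61) and 1.21 for Irf5 (0.80 to 1.69). These 4 of 8 members were at least 2-fold higher in TG, where 5.33% of all tested genes were. None was at least 2-fold lower, where 1.68% were. Irf1 was at 0.82 (0.65 to 1.00) and Irf9 at 0.74 (0.50 to 0.99), short of that size. Being at least 2-fold lower in the males and at least 2-fold higher in the females was found for 4 of the 8 and for 3.81% of all tested genes.

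Irf2 and Irf3 stood apart from the other members. The log2 ratio of Irf2 was 0.13 (-0.14 to 0.40) in the males and -0.021 (-0.28 to 0.24) in the females, both intervals including 0. It was the sole member higher in the males and lower in the females, as were 32.8% of all tested genes by any amount. Irf3 was at -0.11 (-0.37 to 0.15) in the males and -0.55 (-0.78 to -0.33) in the females. The latter was lower in TG, opposite to the other 6 genes, whose ratios in the females were all above 0.

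**Figure D2:**
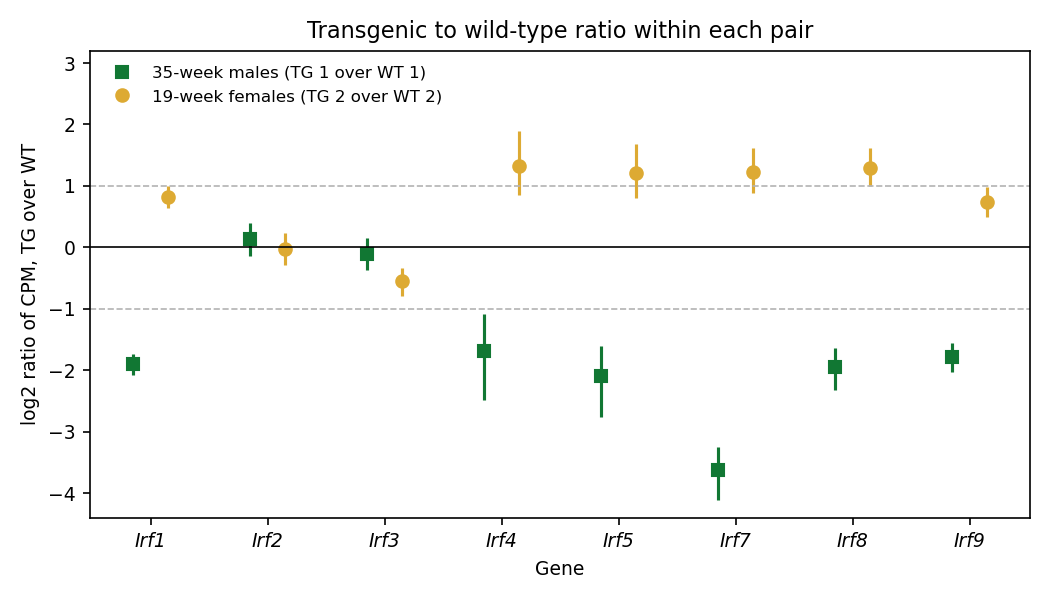
Log2 ratio of CPM, transgenic over wild type, for each gene within the male pair (green squares) and the female pair (yellow circles); each point compares 1 library with 1 library, vertical lines are exact 95% counting intervals and dashed lines mark a 2-fold ratio. Irf1, Irf4, Irf5, Irf7, Irf8 and Irf9 are below 0 in the males and above 0 in the females, and Irf2 lies at 0.13 and -0.021.

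**Figure D3:**
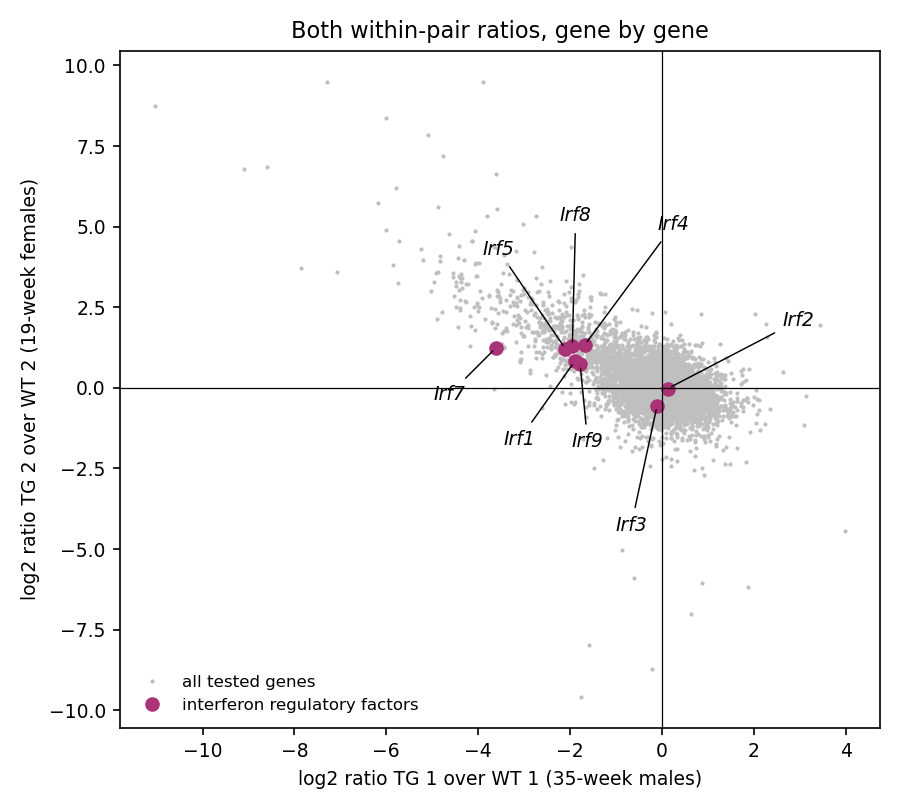
Log2 ratio TG over WT in the males (horizontal axis) against that in the females (vertical axis) for all 14189 tested genes (grey points) and the 8 interferon regulatory factors (purple, named), 1 library per genotype in each pair. The axes share no library, and 6 of the 8 factors lie in the upper left quadrant, which holds 31.9% of all tested genes.

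Markers of white blood cells showed the same split in most lists, but not in all lists or for all genes. Macrophage markers (12 in the table) summed to 687 CPM in WT 1 and 517 in TG 2, more than the 271 in WT 2 and 278 in TG 1, and none was at 0. For T and NK cells (11) the sum was 42.0 CPM in WT 1 and 39.8 in TG 2 but 2.94 in WT 2 and 2.35 in TG 1, with Cd8a, Ncr1 and Klrb1c at 0 in TG 1. For dendritic cells (8) the sums in the same order were 44.1, 41.5, 40.6 and 32.9 CPM, with Ccr9 at 0 in WT 2 and TG 1. Most of that sum was Zbtb46, which endothelium also expresses (24.3 to 38.3 CPM), while Xcr1 stood at 5.65, 3.72, 0.640 and 0.356 CPM. Flt3, Itgax and Clec9a were likewise higher in WT 1 and TG 2 than in WT 2 and TG 1. Siglech went the other way, with 6 counts in WT 1, 3 in TG 2, 10 in WT 2 and 15 in TG 1. Cd209a had 7, 4, 3 and 4 counts in the same order. B and plasma cell markers (7) summed to 40.4 CPM in WT 1 and 126 in TG 2 against 6.52 in WT 2 and 9.18 in TG 1, with the B-cell factor Pax5 at 0 in all but TG 1, where it had 1 count. Monocyte markers (4) summed to 85.7 and 84.7 against 102 and 78.7 CPM, mostly from the matrix gene Fn1, which did not follow the split. The other monocyte markers did. Ccr2 stood at 27.8 CPM in WT 1, 31.3 in TG 2, 5.63 in WT 2 and 2.13 in TG 1. Plac8 was at 1.82, 2.26, 0.32 and 0.142 CPM in the same order, and Ly6c2 at 4.26, 4.38, 2.24 and 3.06 CPM. Neutrophil markers (6) summed to 4.8 and 4.05 against 1.34 and 1.21 CPM, with Ly6g at 0 in all but WT 1. Endothelial (7) and fibroblast markers (6) did not follow, at sums of 924 to 1160 and 1190 to 1440 CPM. Smooth muscle and pericyte markers (6) summed to 1500 CPM in WT 1, 1600 in TG 1, 964 in WT 2 and 1560 in TG 2. The natriuretic peptide gene Nppa, made by atrial muscle and also by stressed ventricle, followed the leukocyte split, at 3710 CPM in WT 1, 1560 in TG 1, 1060 in WT 2 and 4230 in TG 2. The part of these cell types and of Nppa-expressing muscle in the member ratios was not tested.

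Levels of different genes were compared per kilobase of exonic length. The length joined the exons of all annotated transcripts. For Irf7 these joined into 1 block of 3776 bases that spans the whole gene, and for Irf9 they came to 5386 bases. A shorter transcript would give a higher level per kilobase, so the ranks below hold for these lengths only. As CPM per kilobase, Irf1 was highest in WT 1 (23.0), TG 1 (6.14) and TG 2 (12.0), and Irf3 in WT 2 (7.69, with Irf1 at 6.76). Irf4 was lowest in every library, from 0.334 to 1.54 CPM per kilobase. In between, the order depended on the library. Irf7 ranked second in WT 1 at 11.9 CPM per kilobase and below Irf2 in WT 2 and TG 1, at 1.56 and 0.942 against 2.21 and 2.12. Averaged over the 4 libraries, Irf3, Irf7 and Irf9 (5.63, 4.53 and 4.41 CPM per kilobase) could not be ordered, since their ranges of 4.63 to 7.69, 0.942 to 11.9 and 2.34 to 8.06 overlapped. Irf5, Irf8 and Irf2 (2.24, 2.14 and 2.11) overlapped likewise.

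Start regions of the genes were searched for the sites through which interferon signals are read, since several members shared an order of the libraries. All 8 had windows among the RefSeq promoters of build GRCm38.p6, 11 windows in all, and the 250 bases before each start were searched on both strands. The motifs were the core of the interferon-stimulated response element, GAAA, any 2 bases and GAAA, the interferon gamma activated site, TTC, any 3 bases and GAA, and the joint PU.1 and IRF site, GGAA, any 2 bases and GAAA. These letters occur in 2.98%, 7.02% and 2.3% of all 32851 windows of that length. The windows with a match, upstream of Irf1, Irf8 and Irf2, are shown 5′ to 3′ with the matches in capitals.
Irf1, chr11:53769764-53770013, plus strand: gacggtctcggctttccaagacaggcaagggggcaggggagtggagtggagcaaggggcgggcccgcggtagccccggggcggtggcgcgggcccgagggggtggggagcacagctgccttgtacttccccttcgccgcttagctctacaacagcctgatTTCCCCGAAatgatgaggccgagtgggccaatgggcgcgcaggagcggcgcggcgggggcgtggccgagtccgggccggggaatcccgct
Irf8, chr8:120736108-120736357, plus strand: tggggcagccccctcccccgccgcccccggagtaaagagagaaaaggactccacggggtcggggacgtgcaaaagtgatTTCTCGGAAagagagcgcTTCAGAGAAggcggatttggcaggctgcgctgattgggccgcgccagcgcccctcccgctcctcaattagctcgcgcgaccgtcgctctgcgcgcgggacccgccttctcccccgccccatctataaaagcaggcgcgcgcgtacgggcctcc
Irf2, chr8:46739495-46739744, plus strand: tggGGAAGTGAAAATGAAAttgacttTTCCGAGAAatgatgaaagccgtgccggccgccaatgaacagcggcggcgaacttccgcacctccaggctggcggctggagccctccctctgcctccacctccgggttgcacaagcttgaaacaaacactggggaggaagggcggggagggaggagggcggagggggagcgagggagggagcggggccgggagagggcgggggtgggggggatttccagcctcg
In the Irf1 window the capitals are the gamma activated site letters TTCCCCGAA, 90 to 82 bases before the start. Irf8 held 2 such matches, TTCTCGGAA and TTCAGAGAA, at 171 to 163 and 153 to 145 bases before the start. Irf2 held a PU.1 and IRF match, GGAAGTGAAA, which overlapped a response element match, GAAAATGAAA, and it also held the gamma activated site letters TTCCGAGAA. A match is a description of letters and not a measured binding site. Irf2 held all 3 kinds of match and was nearly flat, and the 250-base windows of Irf7 and Irf9, which varied, held none, nor did those of Irf3, Irf4 and Irf5. Both Irf9 windows, 55603735 to 55603984 and 55604329 to 55604578, lay inside the gene as annotated by GENCODE, which begins at 55603571. The bases before that start were therefore not searched.

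WT 1 and TG 2, the libraries with the higher leukocyte markers, differed from each other in which members were high. Irf7, Irf1 and Irf9 were 3.23-, 1.93- and 1.78-fold higher in WT 1, with log2 ratios of 1.69 (interval 1.47 to 1.92), 0.95 (0.82 to 1.08) and 0.83 (0.65 to 1.02). Irf8 and Irf5 were at 0.29 (0.076 to 0.51) and 0.11 (-0.23 to 0.44). Irf4 was lower in WT 1, at -0.45 (-0.87 to -0.042). Irf7 was the sole member at least 2-fold higher in WT 1, as were 1.95% of all tested genes, and 5 of 8 were higher in WT 1 by any amount, as were 50.2%. The 5 leukocyte markers had a median log2 ratio of 0.30, and all tested genes one of 0.0014. Erythroid markers, 4 of them tested, were higher in WT 1, with a median log2 ratio of 2.3 and sums of 718 CPM in WT 1 against 142 in TG 2, and their part was not tested. Genotype, sex and age differ together between these mice and cannot be told apart.

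Target genes of the factors were read from lists compiled from general knowledge. Among 20 targets of ISGF3 and IRF7, antiviral effectors for the most part, 19 were higher in WT 1 than in TG 2. Over all tested genes this share was 50.2%. At least 2-fold higher were 10 of the 20, against 1.95% of all tested genes, and the median log2 ratio of the list was 0.94. Parp14, the most abundant, was measured at 194 CPM in WT 1, 55.1 in TG 1, 49.1 in WT 2 and 111 in TG 2. Ifit2, which binds viral RNA, stood at 92.0, 23.9, 18.2 and 33.9 CPM in the same order. The kinase gene Eif2ak2 and the antiviral gene Rsad2 were at 58.3, 33.2, 19.3 and 38.3 CPM and at 36.8, 7.54, 8.89 and 21.8 CPM. Of 20 IRF1 targets 19 were higher in WT 1 than in TG 2, but only 2 at least 2-fold, with a median of 0.48. The class I light chain gene B2m differed little, at 979 against 915 CPM, as did the class I heavy chain genes H2-K1 (360 against 321) and H2-D1 (535 against 472), whereas the GTPase gene Irgm1 was at 443 against 161. Of the 14 tested IRF8 targets 13 were higher in WT 1 than in TG 2, as were 5 of 5 leukocyte markers. For the IRF8 targets the median was 0.23 and 0 reached 2-fold, among them Cd74 (573 against 497 CPM), H2-Aa (374 against 270), H2-Ab1 (214 against 159) and the protease inhibitor Cst3 (350 against 326).

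**Figure D4:**
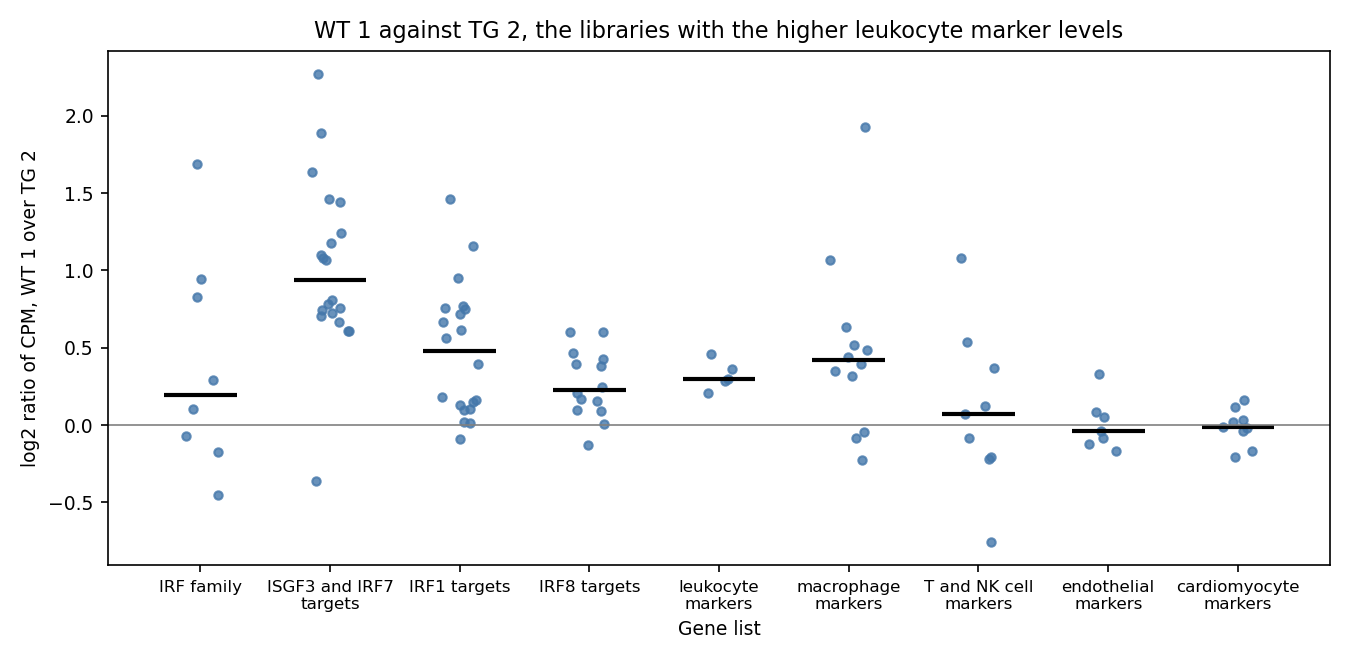
Log2 ratio of CPM of WT 1 over TG 2 for each tested gene (points, spread sideways for visibility) of 9 gene lists, 1 library each, with the median of each list as a black bar. The targets of ISGF3 and IRF7 have a median of 0.94, above those of the IRF1 targets (0.48), the IRF8 targets (0.23) and the leukocyte markers (0.30), and cardiomyocyte markers lie around -0.014.

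No gene of any pathway list passed the edgeR test between TG and WT in either direction: 0 of 11 tested cofactors, 0 of 22 sensing genes, 0 of 12 receptor and JAK-STAT genes, 0 of 20 targets of ISGF3 and IRF7, 0 of 20 targets of IRF1 and 0 of 14 targets of IRF8. Their median log2 fold changes were 0.12, -0.021, -0.065, -0.67, -0.44 and -0.18, against -0.011 for all tested genes. The unadjusted p was below 0.05 for 99 genes in all, and the share called over all genes was 0.0% as above. None of them was among the 4 genes called between males and females.

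Within the pairs, the pathway lists differed in their median ratios. The receptor and JAK-STAT genes and the sensing genes had the smallest medians. Their median log2 ratios in the males and females were -0.30 and 0.16 for the receptor and JAK-STAT genes and -0.24 and 0.38 for the sensing genes. Examples are Ifngr2, a receptor chain, at 219 CPM in WT 1, 213 in TG 1, 231 in WT 2 and 218 in TG 2, and Mavs, the mitochondrial adaptor of RNA sensing, at 75.8, 101, 116 and 87.7 CPM. The adaptor Azi2, the kinase gene Irak1 and the receptor gene Tlr4 spanned 91.5 to 98.4, 75.0 to 87.6 and 56.2 to 86.8 CPM. Jak1 and Stat3 spanned 188 to 275 and 215 to 276 CPM. At least 2-fold lower in the males and at least 2-fold higher in the females were 3 of 22 sensing genes and 1 of 12 receptor and JAK-STAT genes. So were 12 of 20 ISGF3 and IRF7 targets, 16 of 20 IRF1 targets and 11 of 14 IRF8 targets, against 3.81% of all tested genes. The 3 sensing genes were Zbp1 (log2 ratios of -4.52 in the males and 2.84 in the females), Tlr9 (-2.53 and 1.96) and Tlr8 (-1.9 and 1.26). The lists share genes with the leukocyte programme, and the part of cell content in these counts was not tested.

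Cofactors of the family were mixed. Irf2bp2, Irf2bpl, Ep300 and Crebbp, general co-regulators, were found at 66.2 to 114, 18.8 to 36.9, 77.0 to 120 and 58.8 to 116 CPM. Of the 11 tested cofactors, 6 passed 2-fold in both pairs, lower in the male and higher in the female, against 3.81% of all tested genes. These 6 were Spi1, which encodes PU.1, Batf, Batf2, Batf3, Ikzf1 and Ikzf3, all known as factors of blood cells. Spi1 stood at 9.73 CPM in WT 1, 2.56 in TG 1, 2.3 in WT 2 and 8.04 in TG 2. Interferon genes themselves were barely detected. Of 9 listed, 8 had 0 counts in every library, and Ifng, made by T and NK cells, had 5 counts in WT 1, 5 in TG 2 and 0 in both WT 2 and TG 1. A count of 0 allows up to 3 counts per library, so low levels of interferon transcripts were not detectable at this depth.

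Genes whose pattern was most like each member's were found by root-mean-square distance of log2 CPM, centred over the 4 libraries, among 12217 named genes with a mean of at least 1 CPM. With 4 libraries such likeness is a description, and close matches are common for flat patterns: 4580 genes lay within 0.15 of Irf2 and 462 within 0.15 of Irf3, against 35 for Irf8, 12 for Irf9, 11 each for Irf1 and Irf5, 3 for Irf4 and 0 for Irf7. Irf8 was closest to Ncf4, an NADPH oxidase subunit of phagocytes (distance 0.023), Fgl2 (0.030) and Fgd2 (0.046). For Irf5 they were Traf1 (0.061), the leukocyte adaptor Lcp2 (0.074) and the channel gene Trpm2 (0.075). Irf4 was nearest to Arhgap4 (0.10), Hmha1 (0.11) and AI593442 (0.14). Closest to Irf9 were the platelet chemokine gene Ppbp (0.080), Parp9 (0.086) and the antiviral gene Mx2 (0.086). Irf1 had Amz1 (0.033), Ppbp (0.089) and Pydc3 (0.10), and Irf1 and Irf9 lay within 0.071 of each other. For Irf7 the nearest were the tubulin gene Tubb3 (0.20), the antiviral gene Ifit1 (0.26) and Klrb1b (0.28). Tubb3 and Klrb1b lay near the zero-count limit in TG 1, at 0.142 and 0.213 CPM, and Tubb3 also in WT 2, at 0.192 CPM. The log2 CPM behind these distances used a prior count of 2, which narrows ratios at such levels. Ifit1 itself was at 47.5 CPM in WT 1, 3.70 in TG 1, 4.09 in WT 2 and 15.3 in TG 2. Irf2 was nearest to Cuedc1 (0.0044), C2cd2l (0.0049) and Ints12 (0.010), and Irf3 to Mustn1 (0.026), Ndrg4 (0.031) and Numbl (0.035).

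Some members overlap other genes in the GENCODE vM21 annotation, and no source used here gives the strand setting of the counting. Over exons the overlap with a gene on the opposite strand was 14.1% of the length of Irf5 (with Tnpo3), 3.40% of Irf1 (with Gm17334), 2.56% of Irf3 (with Bcl2l12) and 1.19% of Irf7 (with Phrf1). Irf9 shared 2.28% with Rnf31 on its own strand. Irf2, Irf4 and Irf8 had no exonic overlap. By overlap alone, the level of Irf5 is less certain than theirs if the counting ignored strand, which was not tested.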

How the data were processed

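Total RNA of 4 left ventricles was sequenced from stranded libraries. The authors deposited raw read counts per Ensembl gene, made with STAR 2.3.0 and HTSeq 0.6.1 on mm10, per the submitters' processing notes, which also name CASAVA 1.8.2, FastQC 0.10.0 and DESeq. No source used here gives the annotation release. A second table, normalized by the authors, was not used.

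Groups came from the sample titles, and columns were matched by the mouse numbers in the descriptions. The tests used edgeR 4.0.16 (R 4.3.3): filterByExpr with a minimum count of 10 left 14189 genes, trimmed means gave TMM scaling factors of 0.934 to 1.06, and the quasi-likelihood test was run with Benjamini-Hochberg adjustment over all genes at 0.05, for genotype and separately for males against females, without a block. DESeq2 1.42.0, limma-voom (limma 3.58.1), other scalings, no filter, a block and the omission of each library were alternatives. Log2 ratios within pairs used a prior count of 2. As a check of the code only, the edgeR step was run on simulated counts with the same spread setting for every gene. The simulated counts had no split across the pairs, unlike these data. They do not show how the test performs here. Positions and exonic lengths came from GENCODE vM21, which matched 99.2% of tested genes, and promoters from RefSeq. Genes without a symbol held 0.116 to 2.23% of counts and stayed in.

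The members and lists were chosen with earlier results of these data known. Named genes were all members, the 3 genes of most similar pattern to each and the 4 most abundant tested genes of each pathway list, 1 of which is not reported here. Xcr1, Zbtb46, Nppa, Myl4, Myl7, Sln, Mertk, Cd163, Igj and the 6 cofactors past 2-fold were singled out after their values were seen. So were the cardiomyocyte markers named singly, Flt3, Itgax, Clec9a, Siglech, Cd209a, Ccr2, Plac8, Ly6c2, Zbp1, Tlr8 and Tlr9. Each library came from a separate mouse. The 2 mice of a genotype differed in sex and age, so the spread behind the genotype p-values includes those differences. In the test of males against females the spread includes genotype.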

Additional observations from a re-analysis of the deposited data

Results flagged for a closer look

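For 6 members the ratio of TG to WT lay on opposite sides of no change in the pairs, with both counting intervals excluding 0. The log2 ratio in the males minus that in the females was -4.84 for Irf7, -3.31 for Irf5, -3.24 for Irf8, -3.01 for Irf4, -2.72 for Irf1 and -2.51 for Irf9. Each pair holds 1 library per genotype, so these differences were not tested. Among all tested genes 31.9% were lower in the male pair and higher in the female pair by any amount, with no interval required. The share of all tested genes that meet the interval rule was not computed. Leukocyte markers moved with the 6 members, at summed CPM of 193 in WT 1 and 157 in TG 2 against 37.0 in each of the others. The part of these markers was not tested.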

How the results depend on the processing

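No member was called under any of the alternatives run, for TG against WT or for males against females. The number of genes called between TG and WT was 0 under RLE scaling, no filter, limma-voom and the replicate block, 3 by DESeq2 and 0 to 8 when 1 library was left out, the 8 without WT 1. Between males and females, 4 in the main analysis, it was 7 without a filter, 34 by DESeq2, 0 with genotype as a term, and 0 to 9 with 1 library left out (0 without WT 1, TG 1 or WT 2, 9 without TG 2). An omission leaves 1 group with 1 library, which is assumed to vary like the other group.

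Leaving out 1 library moved the log2 fold change of TG over WT from -1.34 to 0.42 for Irf1, -0.042 to 0.16 for Irf2, -1.37 to 0.84 for Irf4, -1.64 to 0.55 for Irf5, -2.84 to 0.58 for Irf7, -1.38 to 0.70 for Irf8 and -1.22 to 0.35 for Irf9. Irf4 was also at -0.17 by limma-voom and at -0.155 with the replicate block. For males over females the ranges were -0.61 to 1.30 for Irf1, -1.68 to 0.29 for Irf4, -1.57 to 0.64 for Irf5, -1.48 to 2.18 for Irf7, -1.17 to 0.93 for Irf8 and -0.63 to 1.15 for Irf9, and Irf8 was at -0.024 with the replicate block. The cause was not tested. With the pair as a block the signs of the other 7 members' TG over WT values did not turn, and no call changed.

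Replicates of the same number share sex and age. Their deviations from the genotype means were correlated at -0.449 over 14189 genes, and a block with the numbers crossed, added after seeing the data, called 0 genes and 0 members. Without a scaling factor the median log2 ratio of all tested genes shifted to -0.17 in the males and 0.18 in the females. Within-pair ratios stayed inside their counting intervals under another prior count and 2 other scalings, except Irf1 in the females, at 1.01 with total counts. The log2 ratio of Irf2 in the males was -0.035 with total counts. Depth limits Irf4 most, at 23 counts in TG 1.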

Other observations

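Relative to the summed CPM of the 5 leukocyte markers, members differed, given here as values. The level of Irf8 equalled 13% of that sum in WT 1, 13.1% in TG 2, 17.3% in TG 1 and 22.5% in WT 2. Irf5 ranged from 5.29 to 10.9% and Irf4 from 2.87 to 7.94%. Irf2 stood at 7.40% in WT 1 and 10.3% in TG 2 against 42.3% in TG 1 and 44.2% in WT 2, since its own level hardly varied while the markers did. For Irf7 the values were 23.3% in WT 1, 8.90% in TG 2, 9.62% in TG 1 and 15.9% in WT 2, with WT 1 highest here as well.

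Not all macrophage markers followed the leukocyte split. Mertk, a receptor for the uptake of dying cells, stood at 13.0 CPM in WT 1, 13.2 in TG 1, 7.29 in WT 2 and 13.8 in TG 2. The scavenger receptor gene Cd163 was at 22.7 CPM in WT 1, 16.0 in TG 1, 22.6 in WT 2 and 5.98 in TG 2. Igj, the joining chain of secreted antibodies, and Irf4 both had their highest level in TG 2, with Igj at 83.9 CPM there, 19.0 in WT 1, 0.448 in WT 2 and 0.569 in TG 1.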
